A study of Mus musculus with 13 samples.

Results

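Methionine and one-carbon cycle enzymes of the liver were examined in alcohol-fed mice. The set held 9 genes chosen by symbol (Mat1a, Bhmt, Ahcy, Gnmt, Cbs, Cth, Mtr, Pemt and Gamt), and all 9 were found among the 53392 genes of the count table. The study asked how hepatic overexpression of acid ceramidase (ASAH), the lysosomal enzyme that hydrolyzes ceramide, changes the alcohol-fed liver, and which control suits the induced transgene best. RNaseq of whole liver was available for 13 female mice of 8 to 14 weeks that received 28% of their calories from Etoh for 4 weeks. The transgene, TRE-ASAH1, was present in ASAH+ mice and absent from ASAH- mice. It needs Dox and the activator rtTA, which every mouse made in hepatocytes from 2 copies each of Albumin-Cre and Rosa26-loxP-stop-loxP-rtTA. The groups were ASAH- littermates on Etoh with Dox hyclate at 200 mg/l (ASAH- Etoh-Dox, n = 4), ASAH+ mice on the same diet (ASAH+ Etoh-Dox, n = 5) and ASAH+ mice on Etoh without Dox (ASAH+ Etoh, n = 4). They are also called the transgene-free, the induced and the uninduced mice below. Induced against transgene-free mice asks what the transgene adds under equal Dox, induced against uninduced mice adds Dox itself to that difference, and transgene-free against uninduced mice compares the controls. No group without alcohol was sequenced among these samples, so the values describe the alcohol-fed liver under different transgene controls and not the effect of alcohol.

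Methionine adenosyltransferase makes S-adenosylmethionine, the methyl donor of the cell, and Mat1a encodes the form of adult hepatocytes. Methyltransferases such as Gnmt, Pemt and Gamt use it and leave S-adenosylhomocysteine, which Ahcy splits to homocysteine. Homocysteine is then either methylated back to methionine, by Bhmt with betaine or by Mtr with methyl-folate and cobalamin, or drained by Cbs and Cth toward cysteine and glutathione. The liver carries most of this traffic, and alcohol is known to disturb it.

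The counts of a mouse added up to a median of 24454043, with a lowest total of 17819486 and a highest of 35358711. Levels are given as CPM, the read count scaled to the TMM-normalized library total. Asah1 itself checked the labels. It measured 48.7, 40.0, 53.7 and 55.0 CPM in the ASAH- Etoh-Dox mice and 46.8, 44.2, 46.8 and 48.3 CPM in the ASAH+ Etoh mice. In the ASAH+ Etoh-Dox mice it measured 10313, 9668, 15134, 12725 and 15935 CPM, so the induced group stood apart from both controls without overlap. The sample titles of the ASAH+ mice give the opposite Dox treatment, and groups were taken from the descriptions and induction labels. Hepatocyte markers (Alb, Ttr, Apoa1, Apob, Serpina1a, Tat and Cps1) were abundant in every mouse, with summed levels of 87282 to 137414 CPM.

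The members spanned about 3 orders of magnitude in level per length, given here as CPM per kilobase of the principal transcript over the 13 mice. Bhmt (mean 1366 ± 672, SD, n = 13) and Mat1a (1341 ± 282) led and did not separate, since Bhmt was higher in 6 of 13 mice. Gnmt followed at 981 ± 274 and stood below Mat1a in all 13 mice, and Ahcy followed at 736 ± 127. Pemt at 224 ± 17.0, Cth at 183 ± 67.7 and Gamt at 107 ± 13.97 formed the middle, where Pemt exceeded Cth in 10 of 13 mice and Cth exceeded Gamt in 12. Cbs stood at 69.5 ± 20.3, and Mtr closed the order at 1.19 ± 0.165, below Cbs in all 13 mice. Per kilobase, the level of Bhmt was on average 1212 times that of Mtr, the other enzyme that remethylates homocysteine, with a range over mice of 329 to 2471. The level of Mat1a was on average 45.2 times that of Mat2a, the form found outside mature hepatocytes, with a range of 35.3 to 66.0. These values depend on the length used, since the exon union of Bhmt is 5758 bases against 2490 bases for the transcript. With union lengths Bhmt stands at place 4, below Mat1a, Gnmt and Ahcy, and Cth (119 CPM per kilobase) stands above Pemt (107). The level of Bhmt is then on average 539 times that of Mtr (146 to 1098), while the level of Mat1a is on average 72.3 times that of Mat2a (56.5 to 106).

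Some counts are shared with near-identical genes. Of the 31-base words of the Ahcy transcripts, 71.4% also occur in other genes, chiefly in the Ahcy-like gene Gm4737, which itself took 4542 to 12967 counts per mouse. Of the words of Bhmt, 29.8% recur elsewhere, mostly in Gm5096 (38 to 351 counts). The counts of Ahcy, and to a lesser degree of Bhmt, are uncertain for this reason. Mat1a, Gnmt, Cth, Mtr and Gamt share no such word with another gene.

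Promoters from RefSeq (GRCm38.p6, 250 bases before to 50 after the start) were matched for 7 of the 9 members, all but Mat1a and Cth. Shown are those of Bhmt and Gnmt, whose levels went together across mice, of Mtr, which was negatively correlated with Bhmt, and of Cbs, the member whose level followed the clock-gene ratio below. Both correlations rested in part on single mice, as given below. Capitals mark the letters CACGTG (E-box, the motif bound by the clock factors CLOCK and BMAL1), TTATGTAA (D-box, bound by DBP), GGGCGG (GC box), CCAAT and TATAAA, searched on both strands, and no matches overlapped. Bhmt is at chr13:93637709-93638008, Gnmt at chr17:46729116-46729415, Mtr at chr13:12258064-12258363 and Cbs at chr17:31637156-31637455, all on the minus strand.
Bhmt: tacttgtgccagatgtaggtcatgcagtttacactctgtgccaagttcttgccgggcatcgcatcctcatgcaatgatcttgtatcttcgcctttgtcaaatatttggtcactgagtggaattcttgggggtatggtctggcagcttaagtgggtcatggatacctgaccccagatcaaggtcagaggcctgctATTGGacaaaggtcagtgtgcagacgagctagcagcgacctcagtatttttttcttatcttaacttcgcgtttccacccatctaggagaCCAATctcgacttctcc
Gnmt: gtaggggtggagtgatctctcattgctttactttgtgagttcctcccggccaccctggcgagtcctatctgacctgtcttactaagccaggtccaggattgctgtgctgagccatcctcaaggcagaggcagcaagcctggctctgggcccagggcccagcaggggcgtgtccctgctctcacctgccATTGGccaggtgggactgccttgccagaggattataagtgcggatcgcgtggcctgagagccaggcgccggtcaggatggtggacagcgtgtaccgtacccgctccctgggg
Mtr: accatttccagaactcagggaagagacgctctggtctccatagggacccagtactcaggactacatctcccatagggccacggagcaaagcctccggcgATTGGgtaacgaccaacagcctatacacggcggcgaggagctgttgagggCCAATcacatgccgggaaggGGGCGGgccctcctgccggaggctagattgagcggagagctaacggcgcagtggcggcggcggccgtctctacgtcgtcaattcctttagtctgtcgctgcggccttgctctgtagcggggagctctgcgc
Cbs: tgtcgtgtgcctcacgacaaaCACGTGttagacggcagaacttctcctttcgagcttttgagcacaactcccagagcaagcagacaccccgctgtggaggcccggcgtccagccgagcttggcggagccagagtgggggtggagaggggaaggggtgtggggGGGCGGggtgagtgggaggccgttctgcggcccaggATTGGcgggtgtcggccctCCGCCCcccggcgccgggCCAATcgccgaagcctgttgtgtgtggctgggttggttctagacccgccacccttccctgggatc

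The E-box letters were found in the promoter of Cbs only among the 8 promoters of the members, and in 7.15% of 32851 promoters in RefSeq. Any part of these letters in how Cbs followed the clock-gene ratio was not tested. CCAAT was found in Bhmt, Ahcy, Gnmt, Cbs, Mtr and 1 of the 2 Pemt promoters, against 37.4% of all promoters. GGGCGG was found in Ahcy, Cbs, Mtr and Gamt, against 35.7%. Neither TTATGTAA (0.938% of all promoters) nor TATAAA (13.6%) was found in any of these 8 windows.

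Mat1a (ENSMUSG00000037798.7, chr14:41105035-41124412, 10 exons) was the member with the smallest p in induced against either control. It measured 3573, 4036, 3753, 3819 and 3533 CPM in the ASAH+ Etoh-Dox mice, 5578, 4299, 6042 and 6326 CPM in the ASAH+ Etoh mice and 5398, 4970, 5202 and 3951 CPM in the ASAH- Etoh-Dox mice. All 5 induced mice lay below all 4 ASAH+ Etoh mice, and 19 of 20 pairs of an induced with an ASAH- mouse were lower in the induced mouse. The means were 3743 ± 203 (SD, n = 5), 5561 ± 896 (n = 4) and 4880 ± 644 CPM (n = 4). Against uninduced mice the log2 fold change was -0.57 (SE 0.116), a difference in level of -32.7%, and Mat1a had rank 5 of 14317 genes by p. edgeR's quasi-likelihood test gave a Benjamini-Hochberg adjusted p of 0.346 over all genes, so Mat1a was not called. DESeq2 called it, with an adjusted p of 0.000558 over the 1982 genes its independent filter kept, and of 0.000592 in a fit of the groups compared alone. edgeR also called Mat1a with no count filter (adjusted p = 0.0918) and without ASAH+ Etoh replicate 2, the mouse of that group with the lowest level (0.0607). Over 24 alternatives the adjusted p ranged from 0.000558 to 0.862 and the log2 fold change from -0.68 to -0.51. Against transgene-free mice the log2 fold change was -0.38 (SE 0.116, edgeR adjusted p = 1.0). For transgene-free against uninduced mice it was -0.19 (SE 0.123, edgeR adjusted p = 0.682). The 3 comparisons share their mice and are not independent of one another.

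**Figure D1:**
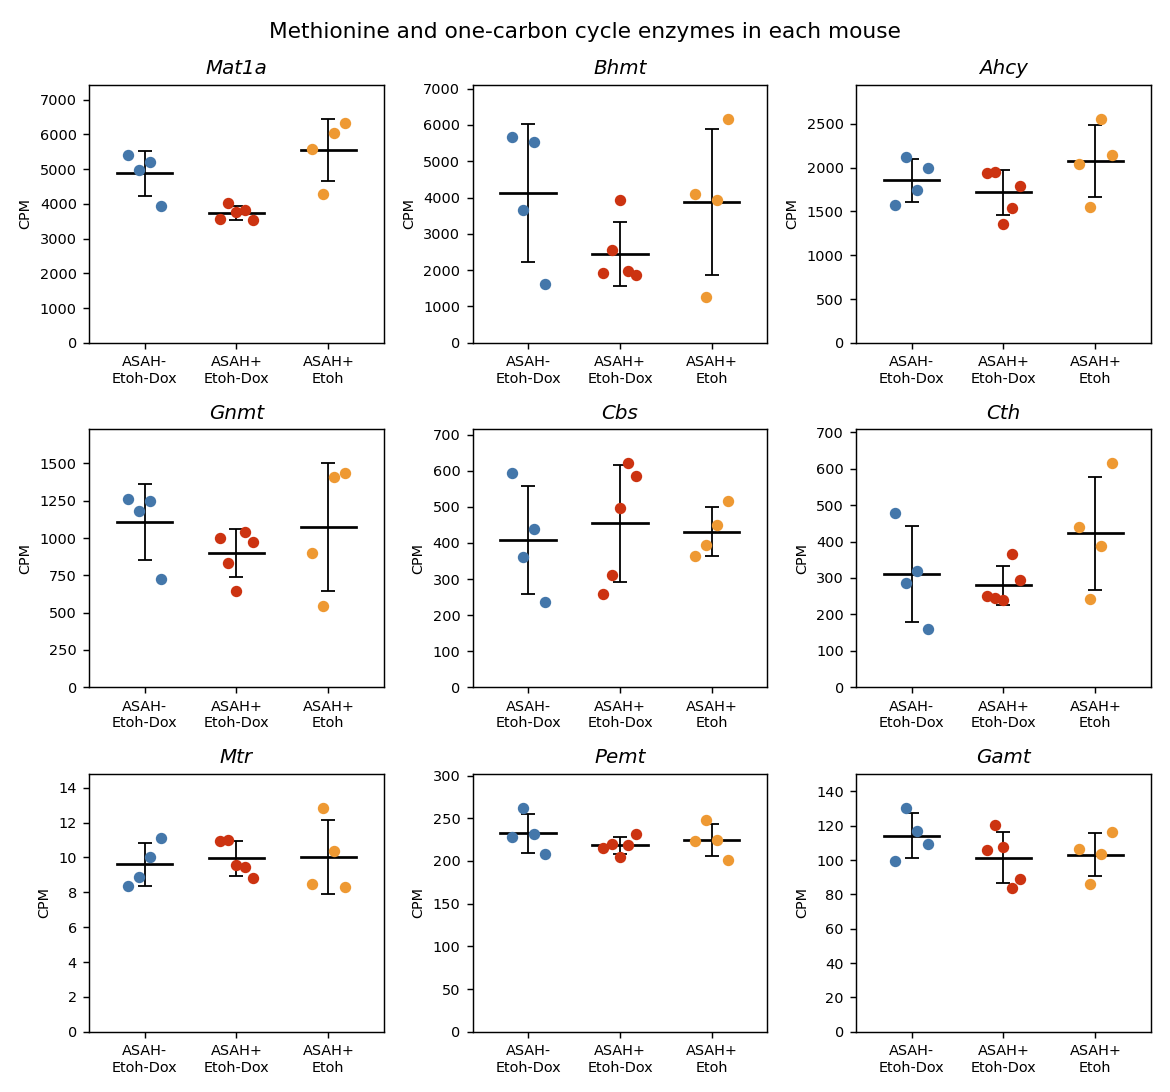
Levels of the 9 members in each mouse, in CPM on linear axes from 0; points are mice, lines are group means and bars are SD (n = 4, 5 and 4). The 5 ASAH+ Etoh-Dox mice sit between 3533 and 4036 CPM for Mat1a, below all 4 ASAH+ Etoh mice, while the other members overlap between groups.

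The group means of markers of other cells also differed, while edgeR called none of these genes. The summed level of 5 red-cell genes (Hba-a1, Hba-a2, Hbb-bs, Hbb-bt and Alas2, led by Hbb-bs) was 166 ± 24.1 CPM in ASAH+ Etoh mice, 560 ± 257 in ASAH+ Etoh-Dox mice and 728 ± 703 in ASAH- Etoh-Dox mice. All 5 red-cell genes separated the induced mice from the ASAH+ Etoh mice without overlap, at a median log2 fold change of 1.85, and edgeR called none. The summed level of 6 sinusoidal endothelial genes, led by Clec4g, was 129 ± 15.3 CPM in the induced mice, 165 ± 46.3 in ASAH- Etoh-Dox mice and 169 ± 22.04 in ASAH+ Etoh mice. Hepatocyte markers, led by Alb, summed to 109323 ± 13633, 124861 ± 8706 and 116672 ± 12174 CPM in the same order. Some single hepatocyte markers differed more than this sum, and others less. In induced against uninduced mice 3 of the 7 (Apob, Serpina1a and Cps1) were lower at an unadjusted p under 0.05, and Apob and Serpina1a did not overlap. Apoa1 and Ttr went the other way, at log2 fold changes of 0.26 (SE 0.125) and 0.02 (SE 0.121). In induced against transgene-free mice Apoa1 and Serpina1a were lower at that p, and Serpina1a did not overlap and had rank 12 by p, ahead of Mat1a at rank 28. Of the 6 endothelial genes 5 and 4 were lower at that p in these comparisons, 1 in each without overlap. Of the 6 stellate cell genes 2 were lower at that p in induced against transgene-free mice, where Reln did not overlap and had rank 8 by p, and 0 were lower against uninduced mice. At that p 2 of 6 periportal and 1 of 6 pericentral genes were lower and 1 of 6 lymphocyte genes was higher in induced against uninduced mice. In transgene-free against uninduced mice 6 of 7 Kupffer cell, 5 of 5 red-cell, 3 of 6 stellate cell, 2 of 6 lymphocyte and 1 of 7 hepatocyte genes were higher at that p, and 1 hepatocyte and 1 periportal gene were lower. No marker gene of any list was called by edgeR. Of all genes tested, 1.57% were lower and 1.29% higher at that p in induced against transgene-free mice. Those shares were 3.24% and 4.05% in induced against uninduced mice, and 4.11% and 5.08% in transgene-free against uninduced mice. Without overlap, 0.447% were lower and 0.44% higher, then 1.49% and 1.09%, then 2.4% and 3.09%, in the same order of comparisons. The part of these markers in the level of Mat1a was not tested, and in whole liver fewer cells of a type and less RNA per cell cannot be told apart. Markers of pericentral hepatocytes (led by Cyp2e1) summed to 9863 ± 742 CPM in the induced mice, against 12101 ± 1853 in ASAH- Etoh-Dox and 11711 ± 1498 in ASAH+ Etoh mice. For periportal hepatocytes (led by Pck1) the sums were 8213 ± 1310, 8798 ± 1730 and 9070 ± 2354 CPM. Kupffer cell and macrophage genes (led by Cd5l) summed to 416 ± 127, 506 ± 189 and 330 ± 30.9 CPM, and stellate cell genes (led by Dcn) to 241 ± 17.7, 283 ± 23.5 and 250 ± 25.8 CPM. The stellate sums of induced mice (210 to 257 CPM) lay below those of transgene-free mice (263 to 312 CPM). Cholangiocyte genes (led by Spp1) summed to 39.4 ± 6.29, 49.6 ± 20.1 and 44.4 ± 5.69 CPM. Lymphocyte genes (led by Trbc2) and neutrophil genes (led by S100a9) were near the floor, at 2.31 to 5.37, 1.96 to 4.28 and 1.34 to 3.74 CPM and at 0.521 to 1.55, 0.685 to 2.08 and 1.18 to 2.04 CPM. At most 1 lymphocyte gene and 1 neutrophil gene was at 0 in a mouse, and none of the other lists.

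Bhmt (ENSMUSG00000074768.6, chr13:93616675-93637961), which remethylates homocysteine with betaine, was the most variable member. It measured 5662, 3653, 5544 and 1620 CPM in ASAH- Etoh-Dox mice, 1917, 2564, 3946, 1974 and 1855 CPM in ASAH+ Etoh-Dox mice and 4093, 1269, 3940 and 6176 CPM in ASAH+ Etoh mice. Both control groups held 1 mouse with a level below all 5 induced mice. The highest mouse had 4.87 times the level of the lowest, and the SD within groups, 0.765 on the log2 scale, exceeded that of 95.7% of the genes tested. The log2 fold change was -0.75 (SE 0.442, adjusted p = 1.0) against transgene-free and -0.66 (SE 0.442, adjusted p = 0.775) against uninduced mice, in edgeR. The 95% interval of the former ran from -1.71 to 0.22. Over 24 alternatives the log2 fold change ran from -1.01 to -0.54 against transgene-free and from -0.95 to -0.35 against uninduced mice. Mtr, the cobalamin-dependent enzyme that remethylates with methyl-folate, was scarce and varied less than Bhmt. The SD of Mtr within groups, 0.209 on the log2 scale, exceeded that of 41.7% of the genes tested. Mtr held 144 to 396 counts per mouse. It measured 8.35 to 11.1 CPM in transgene-free, 8.81 to 11.02 CPM in induced and 8.33 to 12.9 CPM in uninduced mice. Its log2 fold changes were 0.05 (SE 0.139), -0.01 (SE 0.139) and -0.06 (SE 0.147) for induced against transgene-free, induced against uninduced and transgene-free against uninduced mice. That of Bhmt in the last comparison was 0.09 (SE 0.468).

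Among the methyltransferases, Gnmt, which buffers S-adenosylmethionine by methylating glycine, measured 1105 ± 255, 898 ± 161 and 1073 ± 430 CPM in transgene-free, induced and uninduced mice. ASAH- Etoh-Dox replicate 4 (726 CPM) and ASAH+ Etoh replicate 2 (545 CPM) were low for Gnmt, and these were also the mice lowest for Bhmt in their groups. Pemt, which makes phosphatidylcholine from phosphatidylethanolamine, was the steadiest member, at 232 ± 22.7, 218 ± 10.1 and 224 ± 19.1 CPM. Its SD within groups exceeded that of only 9.96% of genes tested. Gamt, the last step of creatine synthesis, measured 114 ± 13.1, 101 ± 14.9 and 103 ± 12.7 CPM. Ahcy, which hydrolyzes S-adenosylhomocysteine, measured 1858 ± 247, 1717 ± 258 and 2078 ± 414 CPM. None of these enzymes separated the groups. The log2 fold changes of Gnmt were -0.30 (SE 0.262), -0.26 (SE 0.263) and 0.04 (SE 0.278) for induced against transgene-free, induced against uninduced and transgene-free against uninduced mice. Those of Ahcy were -0.11 (SE 0.147), -0.28 (SE 0.146) and -0.16 (SE 0.155) in this order. Pemt had -0.09 (SE 0.0837), -0.04 (SE 0.0838) and 0.05 (SE 0.0883), the smallest SE of the members, and Gamt had -0.17 (SE 0.12), -0.03 (SE 0.121) and 0.15 (SE 0.127). The identifiers are ENSMUSG00000027597.15 for Ahcy (chr2:155059310-155074497), ENSMUSG00000002769.9 for Gnmt (chr17:46725664-46729168), ENSMUSG00000000301.16 for Pemt (chr11:59970614-60046489), ENSMUSG00000020150.13 for Gamt (chr10:80258151-80261012) and ENSMUSG00000021311.9 for Mtr (chr13:12182712-12258113), with positions on GRCm38.

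Cbs and Cth carry homocysteine to cysteine. Cbs (ENSMUSG00000024039.14, chr17:31608894-31637238) measured 594, 361, 438 and 235 CPM in ASAH- Etoh-Dox mice, 259, 311, 496, 621 and 585 CPM in ASAH+ Etoh-Dox mice and 364, 394, 450 and 517 CPM in ASAH+ Etoh mice. The induced mice held both low and high values, and the 3 groups overlapped. The log2 fold changes of Cbs were 0.16 (SE 0.289), 0.08 (SE 0.288) and -0.08 (SE 0.304) in the order of comparisons above. Cth (ENSMUSG00000028179.12, chr3:157894248-157925077) measured 478, 286, 318 and 161 CPM, then 251, 246, 239, 365 and 296 CPM, then 441, 243, 389 and 615 CPM in these groups. Its log2 fold change for induced against uninduced mice was -0.60 (SE 0.294, edgeR adjusted p = 0.702), close in size to that of Mat1a but with a larger SE. It was -0.15 (SE 0.294) for induced against transgene-free and -0.44 (SE 0.311) for transgene-free against uninduced mice. Over 24 alternatives the log2 fold change of Cth for induced against uninduced mice ran from -0.79 to -0.36. That of Mat1a ran from -0.68 to -0.51. For transgene-free against uninduced mice that of Cth ran from -0.74 to -0.22.

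In edgeR's test, called means an adjusted p under 0.1 over 14317 genes. Of the 9 members, 0 were called in any comparison, where 2 of all genes (0.014%) were called in each. limma-voom also called 0 members and 2 genes (0.014%) in each. Shares for DESeq2 are of the genes its own filter kept, which differed between comparisons. On all 13 mice DESeq2 called 0 members among 12 genes (0.0759% of 15808) for induced against transgene-free mice. It called Mat1a alone among 98 (4.94% of 1982) for induced against uninduced mice. For transgene-free against uninduced mice it called 0 among 149 (1.73% of 8625). In DESeq2 on the groups compared alone the same counts of members stood among 0.0578% of 19040, 0.839% of 13584 and 1.57% of 10699 genes. At an unadjusted p under 0.05 in edgeR, 1 member (Mat1a) was lower and 0 were higher in induced than transgene-free mice, against 1.57% and 1.29% of all genes. In induced against uninduced mice 1 member (Mat1a) was lower and 0 were higher, against 3.24% and 4.05%. In transgene-free against uninduced mice 0 were lower or higher, against 4.11% and 5.08%. The only member whose groups did not overlap was Mat1a, lower in induced than in uninduced mice, where 1.49% of all genes were lower and 1.09% higher without overlap. For induced against transgene-free mice those shares were 0.447% and 0.44%, and for transgene-free against uninduced mice 2.4% and 3.09%, with 0 members in each. The median log2 fold change of the members was -0.15, -0.26 and -0.06 in the 3 comparisons, against -0.00, 0.01 and 0.02 over all genes tested. Of the 9 members 7, 8 and 5 had a negative log2 fold change, against 7254, 6728 and 6698 of 14317 genes.

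**Figure D2:**
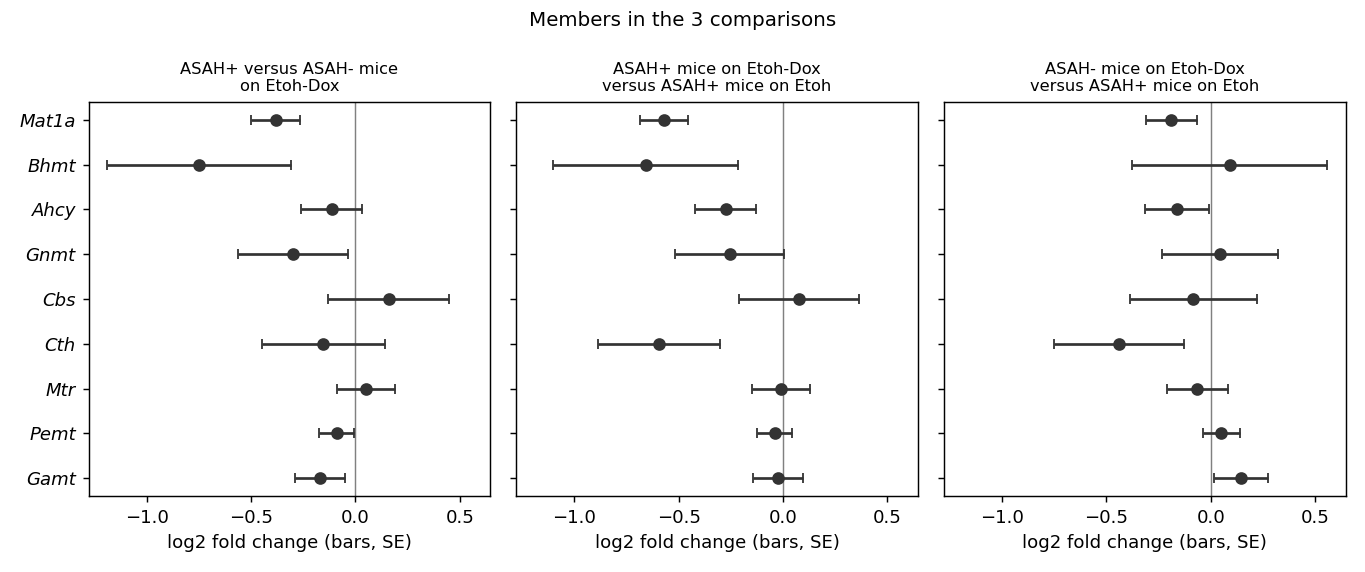
Log2 fold changes of the 9 members in the 3 comparisons; points are edgeR estimates and bars are SE. Mat1a is displaced below 0 with short bars against both controls, Bhmt by more but with an SE of 0.442. No member was called in this edgeR fit.

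Several members were correlated across mice, in counts that depended on single mice. Over all 13 mice, 9 of the 36 pairs of members had a Pearson correlation of log2 CPM past an adjusted p of 0.1 (two-sided permutation tests with 100000 resamples, Benjamini-Hochberg over the 36 pairs), 7 positive and 2 negative. By Spearman's rho 6 pairs were called. All 9 pairs had an r at least 0.63 from 0, as did 4.96% of the 102481086 pairs of genes tested (2.6% positive and 2.35% negative). Mat1a, Bhmt, Gnmt and Cth formed the positive group, and all 6 pairs among them were called by Pearson's r. Mat1a and Gnmt had r = 0.63 (permutation p = 0.0237, adjusted p = 0.095, rho = 0.59 with permutation p = 0.038), and r = 0.42 without the 2 mice farthest in Mat1a. Bhmt and Gnmt had r = 0.67 (permutation p = 0.0139, adjusted p = 0.0715, rho = 0.65 with permutation p = 0.0196), and r = 0.43 without the 2 farthest in Bhmt. Neither was called by Spearman's rho (permutation adjusted p = 0.139 and 0.101). Mat1a and Cth had r = 0.74 (permutation p = 0.00346, adjusted p = 0.0584, rho = 0.67 with permutation p = 0.0141), and r = 0.61 without the 2 farthest mice. Bhmt and Cth had r = 0.70 (permutation p = 0.00811, adjusted p = 0.0584, rho = 0.71 with permutation p = 0.00898), and r = 0.59 without them. Mat1a and Bhmt had r = 0.76 (permutation p = 0.00438, adjusted p = 0.0584, rho = 0.68 with permutation p = 0.0124), and r = 0.71 without the 2 mice farthest from the median of Mat1a. Gnmt and Cth had r = 0.71 (permutation p = 0.00673, adjusted p = 0.0584, rho = 0.81 with permutation p = 0.00124), and r = 0.74 without the 2 farthest mice. Cbs and Cth, the 2 steps of transsulfuration, had r = 0.63 (permutation p = 0.02, adjusted p = 0.0902, rho = 0.58 with permutation p = 0.0428), and r = 0.39 without the 2 mice farthest in Cbs. This pair was not called by Spearman's rho (permutation adjusted p = 0.139). Mtr ran against Cth (r = -0.70, permutation p = 0.00729, adjusted p = 0.0584, rho = -0.78 with permutation p = 0.00257, r = -0.64 without the 2 farthest mice) and against Bhmt (r = -0.67, permutation p = 0.0126, adjusted p = 0.0715, rho = -0.70 with permutation p = 0.00997, r = -0.43 without them). The r over all mice of Mat1a with Gnmt, Bhmt with Gnmt, Bhmt with Mtr and Cbs with Cth rests in part on the 2 farthest mice, and leaving those out also narrows the range of levels. Pemt was called with no other member, its r lying between -0.15 and 0.09.

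On deviations from the group means 10 pairs were called, and Mat1a and Bhmt had r = 0.91 (permutation p = 0.00014, adjusted p = 0.00504). These permutations moved deviations between groups, though taking out the group means leaves fewer free values than mice. The p values on deviations, and the count of pairs called on them, are therefore too favourable. The other 5 pairs among Mat1a, Bhmt, Gnmt and Cth were also called on deviations. Mat1a had r = 0.83 with Cth and r = 0.82 with Gnmt (permutation adjusted p = 0.00837 for each), and Bhmt had r = 0.63 with Gnmt (permutation adjusted p = 0.076). Cbs and Cth had r = 0.70 (permutation adjusted p = 0.034). The count of pairs on the levels themselves, without this step, rests on single mice. There 0 pairs were called without ASAH- Etoh-Dox replicate 1, without ASAH- Etoh-Dox replicate 4 or without ASAH+ Etoh replicate 4. Without ASAH- Etoh-Dox replicate 2 the count was 5. The r of Mat1a with Bhmt exceeded that of Mat1a with 99.4% of genes tested, and the r of Cbs with Cth that of Cbs with 93.9%.

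**Figure D3:**
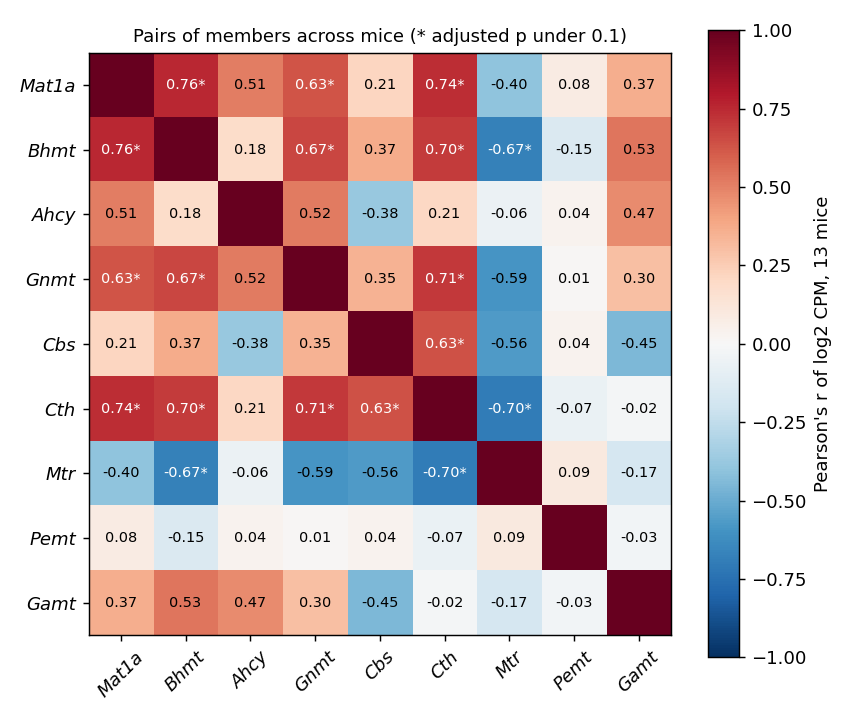
Pearson's r of log2 CPM over 13 mice for each pair of members, with a star where the permutation p adjusted over 36 pairs was under 0.1. Mat1a, Bhmt, Gnmt and Cth share positive values of 0.63 to 0.76, and Mtr is negative with Cth and Bhmt.

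The clock genes differed widely between mice. Dbp is an output gene of the circadian clock that peaks opposite to Arntl, and the log2 ratio of their levels ranged from -1.64 to 6.78 over the 13 mice. It ranged from -0.96 to 6.49 in ASAH- Etoh-Dox, from -1.64 to 6.78 in ASAH+ Etoh-Dox and from 1.60 to 6.06 in ASAH+ Etoh mice. The ranges overlapped, but no ASAH+ Etoh mouse lay below 1.60, where both other groups held mice. The hour at which each liver was taken is not given in the sources used here. A slope of each gene on this ratio was added to the edgeR fit with the group means, a test chosen after seeing the data. Cbs had a slope of -0.12 log2 units per unit of the log2 ratio (SE 0.0247, edgeR adjusted p = 0.0108) and was the only member called. It was called in all 13 fits that left out 1 mouse, with adjusted p from 0.00464 to 0.0631. In the background 4.84% of genes had a called positive and 4.74% a called negative slope. Cbs was highest in mice with a low ratio, such as ASAH+ Etoh-Dox replicate 4 (621 CPM at a ratio of 0.15), and lowest in ASAH- Etoh-Dox replicate 4 (235 CPM at 6.11). The slopes of Cth (-0.10, SE 0.0340, adjusted p = 0.133), Bhmt (-0.13, SE 0.0532, adjusted p = 0.22) and Ahcy (0.05, SE 0.0179, adjusted p = 0.171) were not called. Without ASAH+ Etoh-Dox replicate 3 Cth was called (adjusted p = 0.0234), and without ASAH+ Etoh replicate 2 Ahcy was (adjusted p = 0.0115). Mat1a had a slope of -0.02 (adjusted p = 0.488), and its log2 fold change for induced against uninduced mice was -0.60 with the ratio as a covariate, against -0.57 without it.

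**Figure D4:**
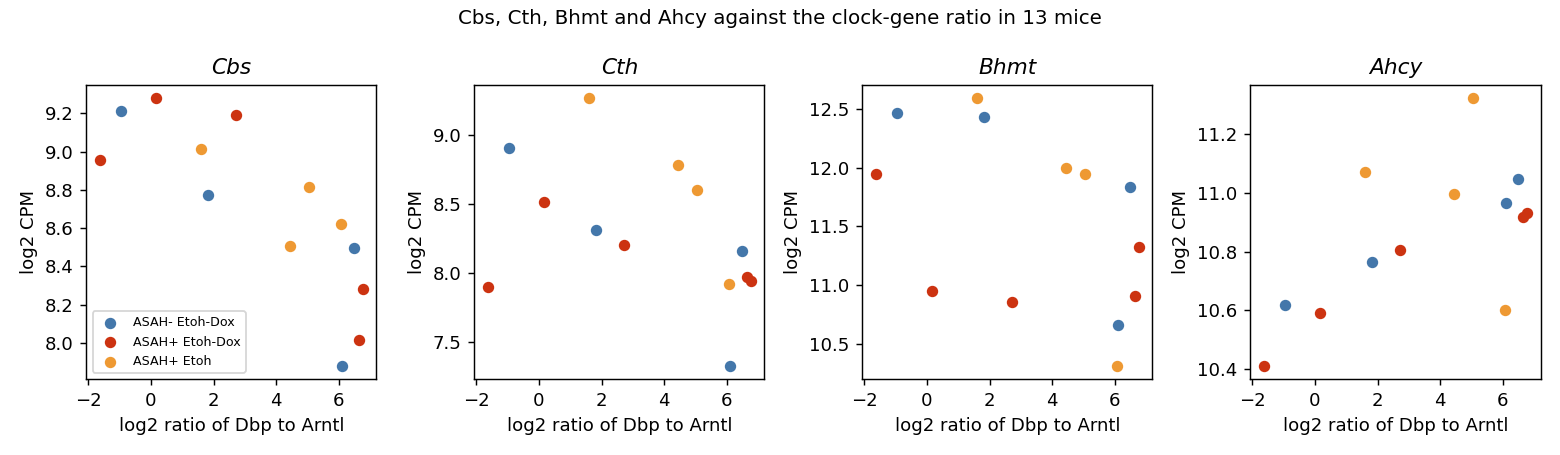
Log2 CPM of Cbs, Cth, Bhmt and Ahcy against the log2 ratio of Dbp to Arntl in 13 mice, coloured by group. Cbs falls along the ratio, with a slope of -0.12, while Ahcy, with a slope of 0.05, was not called.

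The neighbouring pathways were described through 9 lists of 85 genes, of which 84 were tested; Phgdh, the first enzyme of serine synthesis, was too low (0.12 CPM) to be tested. edgeR called 0 of the 84 in each comparison, limma-voom 0, and DESeq2 on all mice 0, 3 and 1. At an unadjusted p under 0.05 in edgeR, 2 were lower and 2 higher, 8 lower and 6 higher, and 5 lower and 6 higher in the 3 comparisons. Over all genes tested these shares were 1.57% and 1.29%, 3.24% and 4.05%, and 4.11% and 5.08%. Groups did not overlap for 0 genes in the first comparison, for 3 lower and 2 higher in the second (Chpt1, Dld and Lmbrd1 lower, Pcyt2 and Mmab higher, named after their values were seen), and for 2 and 2 in the third. Over all genes those shares were 0.447% and 0.44%, 1.49% and 1.09%, and 2.4% and 3.09%. The median log2 fold change was -0.00, -0.05 and -0.06. On the clock-gene ratio 14 of 84 had a called slope, 9 negative and 5 positive, against 4.74% negative and 4.84% positive over all genes. Chka, the first kinase of the CDP-choline route, had a slope of -0.25 (SE 0.0335, edgeR adjusted p = 0.00127). Gldc and Amt, subunits of the glycine cleavage system, had slopes of -0.20 and -0.13 (adjusted p = 0.00637 and 0.00132), whereas Mat2b and Mtrr, the regulatory partner of Mat2a and the reductase of Mtr, had slopes of 0.08 and 0.07 (adjusted p = 0.00193 and 0.0108). Negative slopes were also called for Slc44a1, Fpgs, Cdo1, Bhmt2 and Suox, and positive ones for Srm, Pcyt1a and Inmt.

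Among the partners of the methionine cycle, Adk, the kinase that removes adenosine, and Bhmt2 had the highest levels per length (335 and 80.2 CPM per kilobase). With union lengths Bhmt2 (80.2) stood above Adk (70.0). Mat2a had the smallest p of its list in induced mice against either control, at log2 fold changes of -0.22 (SE 0.0973, edgeR adjusted p = 1.0) against transgene-free and -0.29 (SE 0.0973, adjusted p = 0.548) against uninduced mice. DESeq2 on all mice called Mat2a in the latter (adjusted p = 0.0955), and DESeq2 on the groups compared alone did not. In choline and betaine oxidation Sardh had the highest level (215 CPM per kilobase), and Slc44a1, a choline transporter, had the smallest p in induced against transgene-free mice (log2 fold change 0.36, SE 0.154, edgeR adjusted p = 1.0). Of the CDP routes Pcyt2 and Chpt1 led (160 and 36.9 CPM per kilobase), and Chkb had a log2 fold change of 0.26 (SE 0.0892, edgeR adjusted p = 0.55) for induced against uninduced mice.

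Of the folate cycle Aldh1l1 and Ftcd led (283 and 159 CPM per kilobase). Ggh, which trims folate polyglutamates, had a log2 fold change of -0.40 (SE 0.12, edgeR adjusted p = 0.389) for transgene-free against uninduced mice, which did not overlap. DESeq2 on those groups alone called it (adjusted p = 0.0616), and DESeq2 on all mice did not. In glycine cleavage and serine synthesis Sds and Gcsh led (91.6 and 56.6 CPM per kilobase), and Dld, the shared dehydrogenase subunit, had a log2 fold change of -0.17 (SE 0.0606, edgeR adjusted p = 0.554) for induced against uninduced mice. DESeq2 on all mice called Dld there (adjusted p = 0.015) and between the controls (0.0909). In DESeq2 on the groups compared alone Dld was called in neither comparison. In transsulfuration and cysteine use Cdo1, which oxidizes cysteine, led at 753 CPM per kilobase, followed by Got1 at 130. Csad, a step of taurine synthesis, had the largest log2 fold change of the 84 genes, 1.56 (SE 0.525, edgeR adjusted p = 1.0) for induced against transgene-free mice, where the means were 39.9 ± 22.7 (SD, n = 5) and 13.5 ± 3.51 CPM (n = 4).

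In cobalamin handling Tcn2 and Mmut led (89.5 and 46.6 CPM per kilobase), and Mmab had log2 fold changes of 0.41 (SE 0.138, edgeR adjusted p = 0.548) in induced and 0.40 (SE 0.145, adjusted p = 0.441) in transgene-free against uninduced mice. Of the other methyltransferases Inmt had the highest level (287 CPM per kilobase). Nnmt, which methylates nicotinamide, had a log2 fold change of -0.95 (SE 0.304, edgeR adjusted p = 0.534) for induced against uninduced mice, and DESeq2 on all mice called it (adjusted p = 0.0351). As3mt had the smallest p of that list there (log2 fold change -0.37, SE 0.114, edgeR adjusted p = 0.512). In polyamine synthesis and methionine salvage Oaz1 and Adi1 led (205 and 86.1 CPM per kilobase), and Odc1, the rate-limiting enzyme of polyamine synthesis, had a log2 fold change of -0.28 (SE 0.108, edgeR adjusted p = 1.0) for induced against transgene-free mice. Each list's remaining genes with the smallest p of a comparison were Ahcyl1, Dmgdh, Pipox, Cept1, Chpt1, Mthfd2l, Psat1, Got1, Mpst, Abcd4, Mri1 and Sms, and none was called by edgeR.

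**Figure D5:**
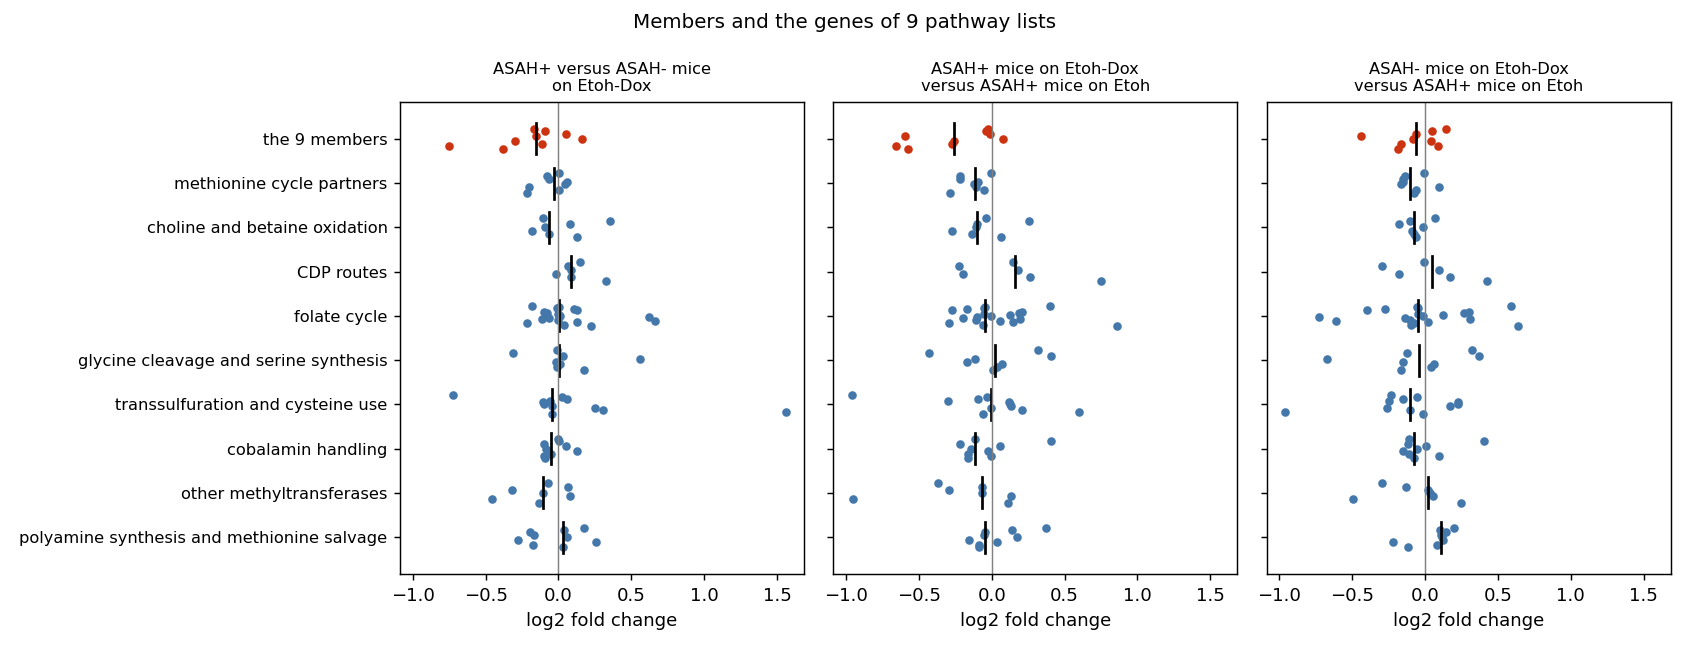
Log2 fold changes (edgeR) of the 9 members and of the tested genes of 9 pathway lists in the 3 comparisons; points are genes and lines are list medians. Most genes lie within 0.5 of 0, and no gene was called by edgeR.

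The genes most alike to each member over the 13 mice, by Pearson's r of log2 CPM, were picked among 14317 and are given with no test. For Mat1a this was Serpina1b (0.95), and for Bhmt these were Gm5096 (0.98), with which it shares sequence, and Bhmt2 (0.94), its neighbour in name and function. Ahcy was most like Slc37a4 (0.95) and Ivd (0.88), Gnmt like Il17rc (0.94) and Lrrc8a (0.92), and Cbs like Slc30a10 and Elmo3 (both 0.97). Cth was most like Slc25a15 (0.96), the mitochondrial ornithine carrier, and Acmsd (0.94), Mtr like Adra1a (0.96) and Slc40a1 (0.91), Pemt like Sp5 (0.88) and Arhgef25 (0.80), and Gamt like Zfp691 (0.93).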

How the data were processed

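The authors sequenced stranded single-end libraries of polyadenylated RNA and deposited estimated counts of each gene, made with salmon against mouse transcripts (GENCODE M19, build GRCm38.p6) and tximport, as whole numbers not scaled for library size. Reads that fit several genes are divided by estimated abundance. Here edgeR's filterByExpr kept 14317 of 53392 genes with the 3 groups. They were normalized by TMM and fitted with edgeR 4.0.16 (robust quasi-likelihood, R 4.3.3) on the 13 mice together, with Benjamini-Hochberg adjustment over all genes tested and called at an adjusted p under 0.1. Log2 CPM for correlations used a prior count of 2. DESeq2 1.42.0 and limma 3.58.1 (voom) were alternatives, with other normalization, filters, samples, covariates, a replicate block and each mouse left out. The scripts were tested on simulated data. GENCODE M21 (GRCm38) gave names, lengths and positions, and 53355 of 53392 identifiers matched. Named genes were the members, Asah1, the 2 genes of each pathway list with the highest level per length, its gene with the smallest p in each comparison, pathway genes called, the most abundant gene of each marker list, and the 2 genes most alike to each member. Some genes under this rule are not reported here. The slope test, its fits without a mouse, the exon-union lengths, the share over all pairs of genes and the genes named for a slope or for groups that do not overlap were chosen after seeing the data. The members and lists were chosen with earlier results of these data known. Mice of 1 group are separate animals. The authors' average transcript lengths were not used here.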

Additional observations from a re-analysis of the deposited data

Results flagged for a closer look

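Among 63 groups of mice looked at (the members, Asah1, the clock-gene ratio and the summed markers), 3 held a mouse far from the others of its group, and chance gives about 1 in 20. For Gnmt, ASAH- Etoh-Dox replicate 4 had 726 CPM where the other 3 mice of its group had 1181 to 1265 CPM. The summed stellate cell markers were 210 CPM in 1 ASAH+ Etoh-Dox mouse, against 244 to 257 CPM in the other 4. The summed neutrophil markers were 2.04 CPM in 1 ASAH+ Etoh mouse, against 1.18 to 1.24 CPM in the other 3, a level at which few reads decide the value.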

How the results depend on the processing

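The count of genes called by edgeR, 2 in each comparison, depended on the tool. For induced against transgene-free mice it was 12 with DESeq2 on all 13 mice, 11 with DESeq2 on the groups compared alone, 1 with edgeR on the groups compared alone, and 1 to 2 with a mouse left out. For induced against uninduced mice it was 98 and 114 with DESeq2 on all mice and on the groups alone, 4 with no count filter, and 2 to 8 with a mouse left out. For transgene-free against uninduced mice it was 149 and 168 with DESeq2 on all mice and on the groups alone, 0 with edgeR on the groups alone, 1 with the log2 Dbp to Arntl ratio as covariate, 0 at an adjusted p under 0.05, and 0 to 2 with a mouse left out. Of the members, 0 were called by edgeR, and for induced against uninduced mice 1 was called with DESeq2 on all mice, 1 with DESeq2 on the groups alone, 1 with no count filter, and 0 to 1 with a mouse left out. Of the pathway genes, DESeq2 called 3 on all mice and 1 on the groups alone for induced against uninduced mice, and 1 and 1 for transgene-free against uninduced mice. The count of member pairs called, 9, was 0 to 11 with a mouse left out. The count of members with a called slope, 1, was 1 to 2, and that of pathway genes, 14, was 11 to 18.

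Of 648 member fold changes under 24 alternatives 620 kept their sign and 28 did not, the largest of these at 0.202. With a mouse left out, the log2 fold change for induced against transgene-free mice ranged from -0.031 to 0.41 for Cbs and from -0.37 to 0.14 for Cth. For induced against uninduced mice it ranged from -0.064 to 0.21 for Cbs, from -0.097 to 0.13 for Mtr, from -0.097 to 0.011 for Pemt and from -0.10 to 0.037 for Gamt. For transgene-free against uninduced mice it ranged from -0.20 to 0.39 for Bhmt, from -0.18 to 0.20 for Gnmt, from -0.34 to 0.11 for Cbs, from -0.16 to 0.081 for Mtr and from -0.015 to 0.10 for Pemt. With the log2 Dbp to Arntl ratio as covariate it was -0.14 for Cbs and 0.043 for Mtr for induced against uninduced mice, and -0.034 for Bhmt for transgene-free against uninduced mice.

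With a replicate block, genes called were 1, 2 and 0 in the 3 comparisons, and for induced against uninduced mice the log2 fold change was -0.059 for Cbs, 0.043 for Mtr and 0.0079 for Gamt. Replicate numbers do not pair the mice: the mean r of same-number mice was -0.0462 (12 pairs), against 0.0126 for other pairs (44).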
